A study of Mus musculus with 12 samples.

Results

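The adult globin chains were followed in mouse erythroleukemia (MEL) cells, a line of red cell precursors transformed by Friend virus that makes hemoglobin when treated with dimethyl sulfoxide (DMSO). The members were chosen by name: the adult β-globin genes Hbb-b1, Hbb-b2, Hbb-bs and Hbb-bt, the adult α-globin genes Hba-a1 and Hba-a2, and Ahsp, which encodes the chaperone of free α-globin. All probe sets annotated to one or several of these 7 symbols and to no other gene were taken, which gave 8 of 45037 probe sets covering 6 of 19324 gene symbols. No probe set matched Ahsp in the annotation used, so the chaperone was not analysed here.

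The study compared wild type MEL cells with MEL cells in which G9a, a histone H3 lysine 9 methyltransferase encoded by Ehmt2, was knocked down. Each group had 3 Affymetrix arrays, and each array was deposited in 2 summaries, GCRMA (log2 values) and MAS5 (linear intensities). The protocol text is the same for both groups: DMSO at 2% for 4 days, and doxycycline at 5 µg/ml to induce the knockdown. Whether doxycycline was given to wild type cells is not stated, and the labels name no construct, clone or mouse strain. There was no arm without DMSO, so the values describe induced cells only. The labels do not say whether the replicates were separate cultures, and the p-values therefore measure only the spread between these arrays.

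Adult hemoglobin joins α chains with β chains around heme, and erythroid cells make both chains in near balance because a surplus of either is unstable. In the mouse the α and β genes lie in separate clusters, on chromosomes 11 and 7. Each cluster is activated by distant enhancers together with promoter elements bound by erythroid factors such as KLF1, which binds CACCC boxes, and GATA1. The symbols Hbb-bs and Hbb-bt belong to one mouse haplotype of the adult β genes, and Hbb-b1 and Hbb-b2 to the other. The series title concerns β-globin expression, and the comparison addresses whether adult globin mRNA differs when G9a is low.

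The 150 bases that end 1 base before the transcription start are given below for the members with an entry in the RefSeq promoter table (4 of 7 symbols, GRCm38.p6). Each of the brightest globin probe sets reads several of these genes at once. No link between promoter sequence and the array values was tested. Capitals mark 3 motifs searched on both strands: CACCC (the box of KLF1), CCAAT (the box known for NF-Y) and TATAA (of the TATA box).
Hbb-bs, chr7:103827929-103828078, minus strand: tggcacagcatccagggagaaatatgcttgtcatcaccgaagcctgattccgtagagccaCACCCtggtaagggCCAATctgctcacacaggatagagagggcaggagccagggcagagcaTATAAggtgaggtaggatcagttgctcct
Hbb-bt, chr7:103813924-103814073, minus strand: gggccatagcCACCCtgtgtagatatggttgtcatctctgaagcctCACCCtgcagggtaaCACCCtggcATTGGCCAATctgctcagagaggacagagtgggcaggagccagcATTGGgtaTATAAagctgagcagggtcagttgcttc
Hba-a1, chr11:32283522-32283671, plus strand: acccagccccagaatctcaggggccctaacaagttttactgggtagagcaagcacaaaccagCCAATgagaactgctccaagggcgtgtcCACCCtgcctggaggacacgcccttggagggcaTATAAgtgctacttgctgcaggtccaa

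The Hba-a2 window is not printed because it is the Hba-a1 window displaced by 3 bases: over the 147 bases they share, 147 were identical. The Hbb-bs and Hbb-bt windows were identical in 115 of 156 aligned columns (73.7%). Each of the 4 windows held all 3 motifs, a combination found in 1.10% of 32851 promoter windows of that length. Singly, CACCC was in 37.4% of the windows, CCAAT in 24.5% and TATAA in 14.2%. TATAA began 27 to 30 bases before the start in all 4. Hbb-bs, Hba-a1 and Hba-a2 had 1 CACCC each and Hbb-bt had 3. The GATA core GATAA, in 13.4% of all windows, was not in these 4 windows, which says only that these letters are not there. The matches are descriptions of the reference sequence, and no binding was measured.

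The knockdown and the cell type were checked first. At Ehmt2 probe set 1426888_at, GCRMA values were 7.43, 7.07 and 6.82 in wild type and 4.29, 4.28 and 4.16 in the knockdown, and Ehmt2 mRNA fell by 2.86 on the log2 scale (limma adjusted p = 0.0216). The other Ehmt2 probe set, 1460692_at, differed by −2.87 (limma adjusted p = 0.0719). The first was the 1 probe set of 17028 tested that passed an adjusted p of 0.05 in GCRMA (0.00587%), and 0% passed in MAS5. Of 8 erythroid markers, 7 had a probe set and all 7 were above the level filter of log2 4, with a summed log2 level of 15.77 to 15.91 in wild type and 15.77 to 15.93 in the knockdown. Of markers of other cell types with a probe set, 1 of 6 myeloid, 0 of 4 lymphoid, 0 of 5 stromal and 2 of 4 megakaryocyte markers were above the filter. The megakaryocyte markers above it were Pf4, at 8.38 ± 0.47 in wild type against 8.26 ± 1.01 in knockdown arrays, and Itga2b, at 11.86 ± 0.22 against 11.15 ± 0.28 (SD, n = 3). The summed megakaryocyte level was 11.85 to 12.16 in wild type and 11.04 to 11.66 in the knockdown, and its part in the results was not tested.

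Adult globin mRNA was abundant in both groups, with the 4 several-gene probe sets between the 99.3rd and 99.9th percentile of all probe sets on every array. No adult globin probe set was called higher or lower in the knockdown. Of the 8 probe sets, 7 passed the filter, and 0 of these 7 passed the threshold in limma in either summary (adjusted p 0.831 to 0.988 in GCRMA and 0.807 to 0.987 in MAS5). At an unadjusted p under 0.05 there was 1 of 7 in GCRMA, against 5.87% of all probe sets tested, and 0 of 7 in MAS5, against 6.47%. The groups overlapped at all 7 in GCRMA, where 12.4% of all probe sets did not overlap, and at 6 of 7 in MAS5, where 12.7% did not. In bulk RNA, fewer globin-producing cells and less globin mRNA per cell cannot be told apart.

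**Figure D1:**
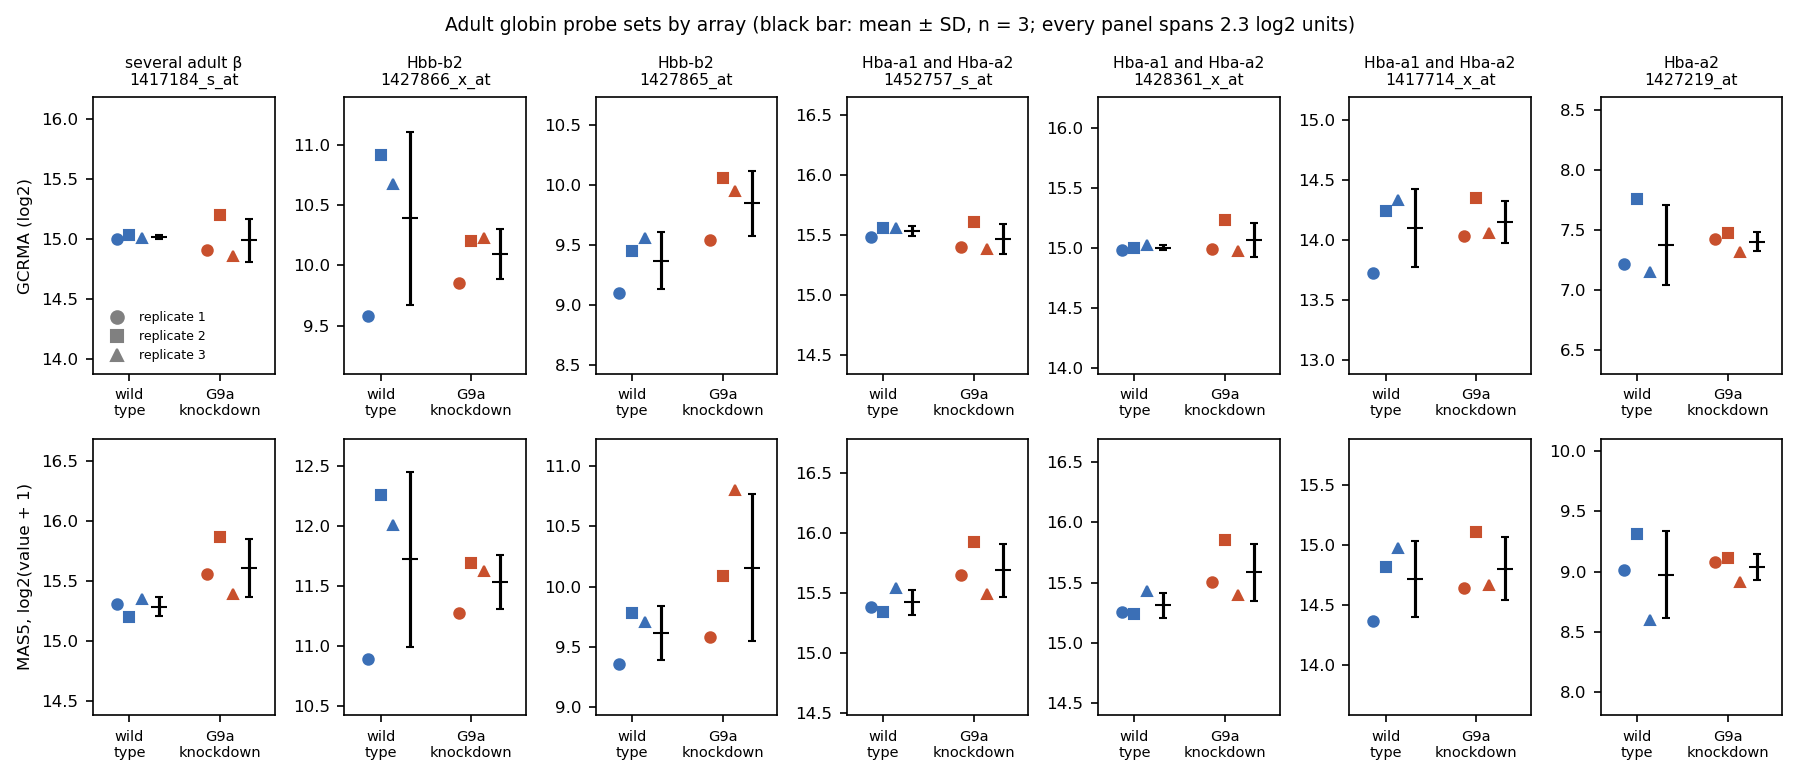
Log2 values of the 7 tested adult globin probe sets in each array, GCRMA above and MAS5 below, with wild type in blue, G9a knockdown in orange, a marker shape for each replicate number and the mean ± SD (n = 3) in black. In GCRMA the groups overlap in every panel, while in MAS5 the several-gene β probe set has all 3 knockdown arrays above the wild type arrays.

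The adult β-globin genes were read together by 1417184_s_at, which is annotated to Hbb-b1, Hbb-b2, Hbb-bs and Hbb-bt and cannot separate them. Its GCRMA values were 15.00, 15.03 and 15.01 in the wild type arrays and 14.91, 15.20 and 14.86 in the knockdown arrays. The knockdown arrays lay on both sides of a wild type group whose SD was 0.016, against 0.18 in the knockdown. The estimated GCRMA level in the knockdown was 0.98 times that of wild type, with a 95% interval of 0.80 to 1.20 from limma. The highest GCRMA value of each array was 16.40 to 16.49. Whether signal this near the top still rises in proportion to mRNA was not tested, so the interval bounds the array signal only. In MAS5 the same probe set had intensities of 40600.5, 37688 and 41753 in wild type and 48280.4, 59714 and 42877 in the knockdown. There every knockdown array was above every wild type array, as for 6.64% of all probe sets tested and 53.3% of the 225 other probe sets in the brightest 0.5%, and the mean log2 difference was 0.32 (−0.054 to 0.69), or 1.25 times. The knockdown replicate 2 array gave the highest value in both summaries.

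The Hbb-b2 probe sets gave differences of opposite sign. Both come from the same source sequence record in the annotation, and the suffix x marks 1427866_x_at as one whose probes may bind related transcripts. At 1427865_at the GCRMA values were 9.10, 9.45 and 9.56 in wild type and 9.54, 10.06 and 9.95 in the knockdown. Knockdown replicate 1 lay just inside the wild type range, and the other knockdown arrays were above it. The difference was 0.48 (95% interval 0.028 to 0.93; limma adjusted p = 0.831). Taken by replicate number, knockdown minus wild type at this probe set was 0.44, 0.60 and 0.39 in GCRMA and 0.22, 0.31 and 1.09 in MAS5. Both summaries come from the same hybridizations, and how many other probe sets share a sign over the pairs was not counted. In MAS5 its mean difference was 0.54 (−0.20 to 1.28) with all arrays and 0.22 without knockdown replicate 3, whose intensity was 1785 against 766 and 1085 in the other knockdown arrays. With the replicate number as a block it was the 1 of 7 globin probe sets at an unadjusted p under 0.05 in each summary, against 13.7% of all probe sets in GCRMA and 10.6% in MAS5. Its limma adjusted p was then 0.209 in GCRMA and 0.472 in MAS5, and 0.0117% of all probe sets passed with the block in GCRMA and 0% in MAS5.

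At 1427866_x_at the GCRMA values were 9.58, 10.92 and 10.68 in wild type and 9.86, 10.20 and 10.23 in the knockdown. All 3 knockdown arrays lay within the wild type range, and wild type replicate 1 stood lowest. The difference was −0.30 (−1.14 to 0.55), and it was −0.70 when wild type replicate 1 was left out and −0.030 when wild type replicate 2 was. By replicate number it was 0.28, −0.72 and −0.45, so the pairs did not share a direction.

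The α-globin genes Hba-a1 and Hba-a2 were read together by 3 bright probe sets. At 1452757_s_at the GCRMA values were 15.49, 15.56 and 15.56 in wild type and 15.40, 15.61 and 15.38 in the knockdown, an estimated ratio of 0.95 (0.79 to 1.14). At 1428361_x_at they were 14.98, 15.00 and 15.03 against 14.99, 15.23 and 14.97, a ratio of 1.04 (0.87 to 1.26). In both, knockdown replicate 2 was the highest array, as at the several-gene β probe set. At 1452757_s_at and at the several-gene β probe set, knockdown replicates 1 and 3 lay below every wild type array. At 1428361_x_at knockdown replicate 1 lay inside the wild type range and replicate 3 just below it. At 1417714_x_at the values were 13.72, 14.24 and 14.33 against 14.03, 14.35 and 14.06, a ratio of 1.03 (0.75 to 1.42). Wild type replicate 1 was the lowest array there too, as at Hbb-b2 probe set 1427866_x_at.

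In MAS5 these α probe sets had positive differences. At 1452757_s_at the intensities were 42584, 41567 and 47679 in wild type and 51435, 62016 and 45878 in the knockdown, a log2 difference of 0.26 (−0.099 to 0.63). At 1428361_x_at the MAS5 difference was 0.27 (−0.10 to 0.65), and at 1417714_x_at it was 0.084 (−0.42 to 0.59). In all 3 the groups overlapped, since wild type replicate 3 exceeded knockdown replicate 3.

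The remaining α-globin probe sets are annotated to single genes and were dimmer. Hba-a2 at 1427219_at read 7.22, 7.76 and 7.15 in wild type and 7.42, 7.47 and 7.31 in the knockdown in GCRMA, a difference of 0.028 (−0.40 to 0.46), and all knockdown arrays were inside the wild type range. Hba-a1 at 1453574_at did not pass the filter, with GCRMA values of 2.43 to 2.49 in wild type and 2.40 to 2.46 in the knockdown, below the array medians of 2.99 to 3.10. The α genes were thus measured mainly through probe sets that do not tell them apart.

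**Figure D2:**
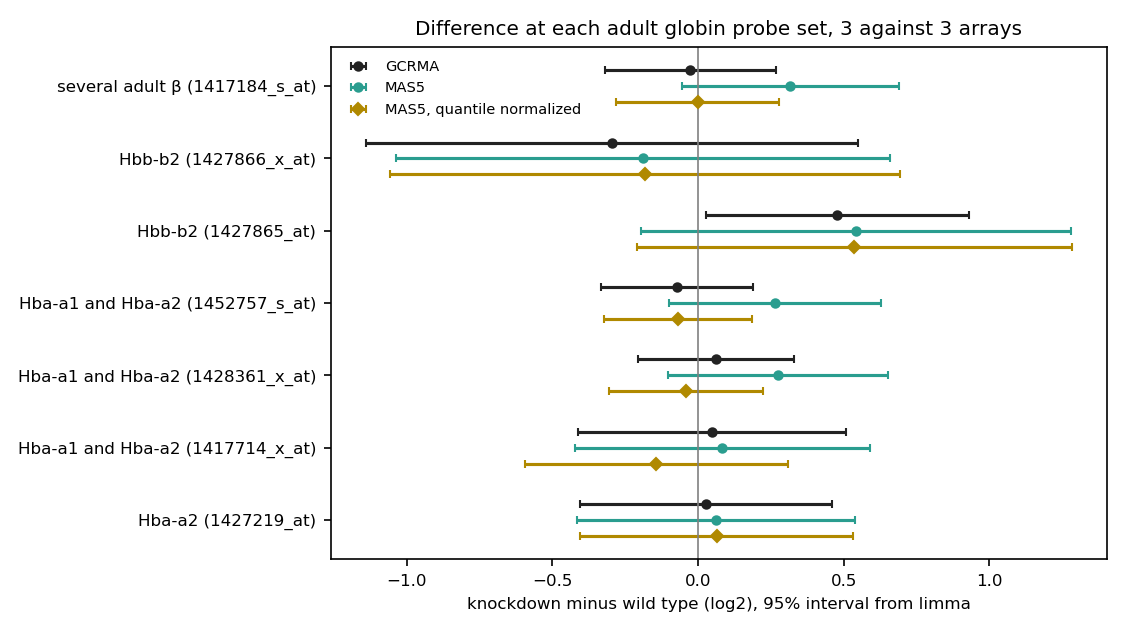
Knockdown minus wild type (log2, horizontal axis) at each tested adult globin probe set, with 95% intervals from limma over 3 against 3 arrays, in GCRMA, in MAS5 and in MAS5 after quantile normalization. The several-gene β probe set moves from 0.32 in MAS5 to −0.00050 after quantile normalization, while Hbb-b2 at 1427865_at stays at 0.54.

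The bright globin probe sets differed between the summaries in the same direction as most other bright probe sets. The MAS5 difference was above the GCRMA difference at 7 of 7 globin probe sets and at 55.5% of all tested. Among the 114 other probe sets with a mean GCRMA level of log2 15 or more, the median MAS5 difference was 0.32 (middle 50% from 0.28 to 0.36) and 99.1% were positive. In GCRMA the same 114 had a median difference of 0.069. From log2 14 to 15 the MAS5 median was 0.21 over 130 probe sets, and from log2 9 to 10 it was −0.0030 over 2422. Over the brightest 1% of probe sets without the members (450), the median difference was 0.17 in MAS5 and 0.027 in GCRMA, against 0.0100 and −0.0083 over all tested. The MAS5 difference of 0.32 at the several-gene β probe set thus equalled the median of the brightest level, and those of 0.26 and 0.27 at α probe sets 1452757_s_at and 1428361_x_at lay just below its middle 50%.

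After quantile normalization of the MAS5 values, which gives every array the same distribution, the difference at the several-gene β probe set was −0.00050 (−0.28 to 0.28). The 3 α probe sets then differed by −0.068, −0.040 and −0.14. Hbb-b2 at 1427865_at, in the middle of the range, differed by 0.54 (−0.21 to 1.28) after it. The median of the 114 brightest was 0.015.

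**Figure D3:**
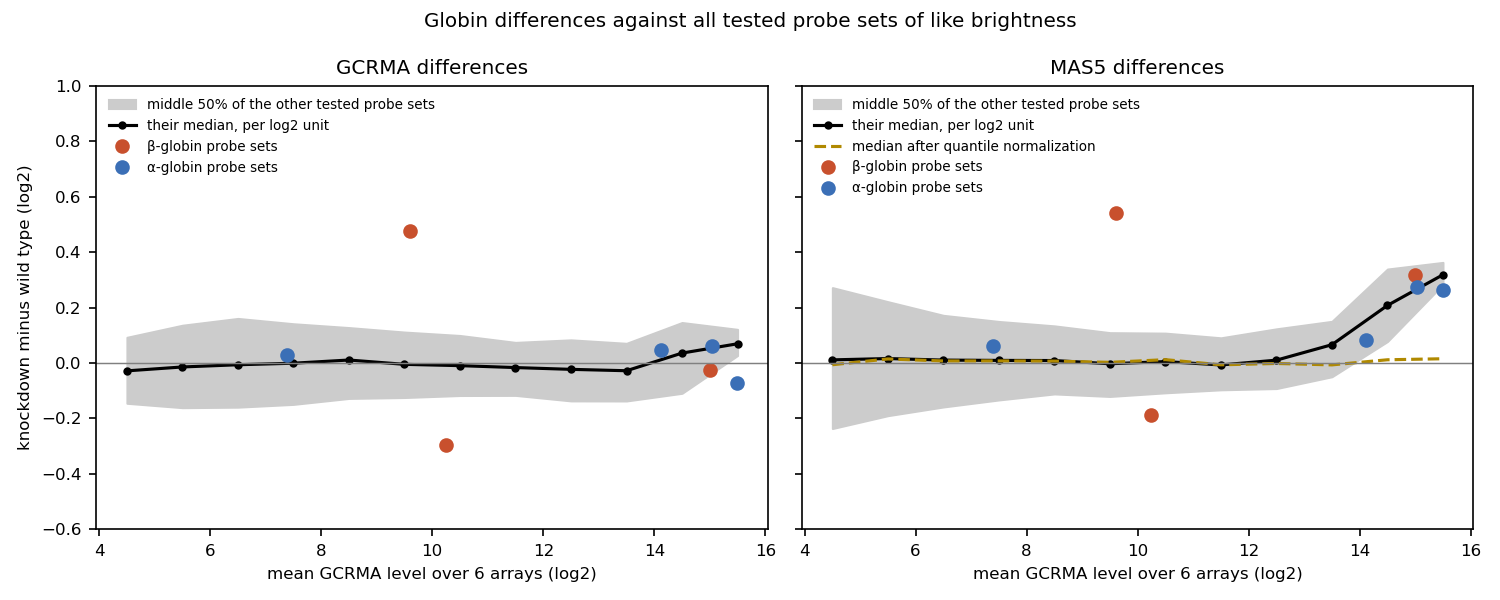
Knockdown minus wild type (log2, vertical axis) against mean GCRMA level (log2, horizontal axis) for the β-globin (orange) and α-globin (blue) probe sets, over the median and middle 50% of all other tested probe sets in steps of 1 log2 unit, the last step holding log2 15 and above. In MAS5 the median climbs to 0.32 at the brightest step and the bright globin probe sets lie between 0.084 and 0.32, and after quantile normalization the median there is 0.015.

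The α to β balance was followed within each array as the mean log2 value of the 3 several-gene α probe sets minus that of the several-gene β probe set. This difference is not the ratio of the chains, because probe sets differ in their response, and only its change between arrays can be read. In GCRMA it was −0.27, −0.098 and −0.041 in wild type and −0.10, −0.13 and −0.058 in the knockdown. All 3 knockdown arrays lay inside the wild type range, and the group means differed by 0.039 (−0.14 ± 0.12 and −0.099 ± 0.039, SD, n = 3). By replicate number the change was 0.17, −0.036 and −0.017.

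In MAS5 the balance was −0.31, −0.068 and −0.033 in wild type and −0.29, −0.24 and −0.21 in the knockdown, and the group means differed by −0.11 (−0.14 ± 0.15 and −0.25 ± 0.045). The knockdown arrays again lay inside the wild type range, which wild type replicate 1 extends downward, and the sign of the mean change was opposite to that in GCRMA. No test was run on the balance, which is a score over the members. In GCRMA, 1417714_x_at minus β was −1.28 in wild type replicate 1 and −0.79 to −0.68 in the other wild type arrays, whereas 1428361_x_at minus β was −0.022 there and −0.031 to 0.014 in the others. In MAS5 wild type replicate 1 was the lowest wild type array for each of the 3 α probe sets minus β. The α probe sets did not share a direction of change against β in GCRMA. By replicate number, 1428361_x_at minus β changed by 0.10, 0.064 and 0.100 (mean 0.088), 1452757_s_at minus β by 0.0052, −0.11 and −0.030 (mean −0.046), and 1417714_x_at minus β by 0.40, −0.058 and −0.12 (mean 0.073). In MAS5 their mean changes were −0.043, −0.053 and −0.23.

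**Figure D4:**
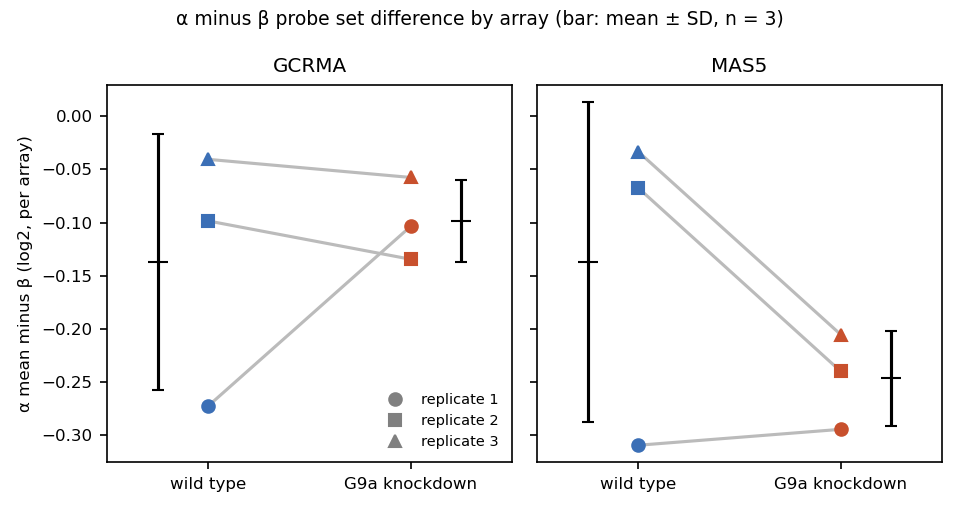
Mean of the 3 several-gene α probe sets minus the several-gene β probe set (log2) in each array, for GCRMA and MAS5, with lines joining arrays of the same replicate number and bars giving the mean ± SD (n = 3). The knockdown arrays lie within the wild type range in both summaries, and wild type replicate 1 is the lowest array in each.

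Across the 6 arrays the bright α and β probe sets varied together. In GCRMA the several-gene β probe set correlated with 1452757_s_at at 0.92, with 1428361_x_at at 0.87 and with 1417714_x_at at 0.49. In MAS5 these values were 0.98, 0.97 and 0.50. Within GCRMA, 1417714_x_at correlated with Hbb-b2 at 1427866_x_at at 0.79, and 1427865_at and 1427866_x_at, both annotated to Hbb-b2, correlated at 0.25. These are descriptions over 6 arrays that share their scaling and, for bright probe sets, the level-dependent shift given above. The 5 genes most like the several-gene β probe set over the 6 GCRMA arrays, among 11724 probe sets compared, were Inf2 (r = 0.99), Samhd1 (0.98), Helz2 (0.97), Nisch (0.97) and Spag4 (0.97). They were picked as the highest of that many values over 6 arrays, so no p is given.

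Embryonic globins, the chains made by primitive red cells, were near the floor. None of the 7 probe sets for Hbb-y, Hbb-bh1 and Hba-x passed the filter, and their GCRMA group means ranged from 2.62 to 3.21. At these dim levels, Hbb-y differed in MAS5 by 2.60 (0.63 to 4.56) at 1436717_x_at and 2.40 (0.49 to 4.31) at 1436823_x_at, without group overlap. In GCRMA these were 0.042 and 0.23, without overlap only at 1436823_x_at. The other Hbb-y probe set differed by −0.089 in MAS5, Hbb-bh1 by −2.08, 0.57 and 0.71, and Hba-x by 0.71. Of tested probe sets, 6.64% had all knockdown arrays higher in MAS5. That share does not cover probe sets below the filter, such as these, for which it was not counted in either summary.

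The other genes of hemoglobin production were read from lists of named genes, each gene through its brightest tested probe set, and 0 passed the threshold in either direction in GCRMA or in MAS5. Of 23 genes that regulate transcription of the globin loci, all were measured, 16 were positive and the median difference was 0.089, against 48.3% positive and a median of −0.0083 over all probe sets tested. At an unadjusted p under 0.05 there were 2 of 23, against 5.87% of all tested. Klf3, a repressor related to Klf1, differed by 0.32 at 1454666_at and by 0.22, 0.19 and −0.015 at its other tested probe sets. Lmo2, a bridging protein of the GATA1 and TAL1 complex, differed by 0.63 (9.42, 9.55 and 8.95 in wild type and 9.91, 10.25 and 9.64 in the knockdown), and its partner Ldb1 by 0.23. Klf1, the CACCC-binding activator of adult β-globin, differed by 0.40 (12.71, 12.65 and 12.11 against 13.00, 13.05 and 12.62; limma adjusted p = 0.852). Its groups overlapped, and the differences by replicate number were 0.28, 0.40 and 0.52, with a limma adjusted p of 0.241 under the replicate block.

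Of 19 genes that handle free chains or match globin synthesis to heme, 15 were measured and 9 were positive (48.3% of all tested). The median difference was 0.053, with 2 at an unadjusted limma p under 0.05 (5.87% of all tested). Ube2o, a ubiquitin ligase that marks free α-globin for destruction, read 10.37, 10.18 and 10.26 in wild type and 9.57, 9.95 and 9.79 in the knockdown. The difference was −0.50 (−0.82 to −0.18, limma adjusted p = 0.70). Its groups did not overlap in either summary, as for 12.4% of all probe sets tested in GCRMA and 12.7% in MAS5. Klf3, Lmo2, Ldb1, Uros, Slc25a37, Pabpc4 and Pcbp1 from the other lists did not overlap in either summary too. Ppp1r15b, which guides dephosphorylation of eIF2α, differed by 0.39. The red cell peroxiredoxin gene Prdx2 differed by −0.23 at its bright probe set and 0.070 at its dim one, and the oxidative stress factor gene Nfe2l2 by −0.20 and 0.047.

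Of 16 heme supply genes, 15 were measured, 10 were positive (48.3% of all tested) and the median difference was 0.12, with 2 at an unadjusted p under 0.05 (5.87% of all tested). Uros, an enzyme of heme synthesis, differed by 0.82 (limma adjusted p = 0.351), and the mitochondrial iron importer gene Slc25a37 by 0.55. The transferrin receptor gene Tfrc differed by −0.23 and Urod, another heme enzyme, by −0.22. In MAS5 the bright Tfrc probe set differed by −0.019. The other tested Tfrc probe sets were dimmer and kept a negative sign in either summary. For 1422966_a_at the GCRMA difference was −0.19 (MAS5: −0.16), while 1422967_a_at had −0.27 (MAS5: −0.21). The other Urod probe set, 1417206_at, was also negative, at −0.25 in GCRMA (MAS5: −0.19).

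Of 7 genes for RNA-binding proteins known from globin mRNA, 6 were measured. In GCRMA 2 were positive (48.3% of all tested) and in MAS5 4 (8870 of 17028 tested). The median difference was −0.042 in GCRMA and 0.10 in MAS5, with 1 at an unadjusted GCRMA limma p under 0.05 (5.87% of all tested). Pabpc4, a poly(A)-binding protein, read 12.66, 12.51 and 12.31 in wild type and 13.04, 13.01 and 13.14 in the knockdown, a difference of 0.57 (limma adjusted p = 0.622), and differed by 0.56 at its other probe set. Pcbp1, of the family that binds α-globin mRNA, differed by −0.19, and Ptbp1, an RNA-binding splicing regulator, by −0.10. Pabpc1, the main poly(A)-binding protein, differed by −0.058 in GCRMA and 0.27 in MAS5 at a level of 15.40 in wild type, the same turn of sign as the several-gene β probe set. Its other tested probe set, 1453840_at, was dimmer and differed by −0.35 in GCRMA and −0.20 in MAS5.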

How the data were processed

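RNA of 6 hybridizations (3 wild type, 3 G9a knockdown) was summarised by the authors in 2 ways, giving 12 deposited columns that were never counted as further replicates. Per the labels, the MAS5 columns are linear intensity values (each array's 2% trimmed mean was 500, so they had been scaled), and the deposited GCRMA columns hold log2 values. Versions and GCRMA settings: not given in the sources used here. Arrays carry no read depth, and their number limits the precision.

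Gene symbols came from the platform annotation (34945 probe sets with 1 gene, 932 with several, 9160 with none), and 64 control probe sets were left out. The test covered probe sets over log2 4 on 3 or more of the 6 arrays, by limma 3.58.1 (R 4.3.3; group as the only term, Benjamini-Hochberg over 17028, threshold 0.05), on GCRMA and on log2(MAS5 + 1). The pipeline was tested on simulated data, with added differences larger than those at the globin probe sets. Changes of the globin size were not covered by it. Members, lists and tests were chosen with earlier results of these data known; motifs and the steps by level were added after seeing the values. Named genes were all member and Ehmt2 probe sets, up to 4 genes per list by lowest p, and the 5 most correlated with the several-gene β probe set (probe sets in the lowest 25% by SD left out).

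Pairing was checked: deviations from the group means correlated at 0.72, 0.57 and 0.37 for same-number arrays, against −0.59 to 0.17 for the others. Centring each group on its own mean lowers the other correlations when the same-number ones are positive, so this contrast is partly fixed by the centring. Differences by replicate number are given on this ground, which comes from the data and not from the labels. The main limma fit did not use the pairing, and the replicate block was run as an alternative.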

Additional observations from a re-analysis of the deposited data

How the results depend on the processing

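Under every alternative run in GCRMA and MAS5 (MAS5 in place of GCRMA, the replicate block, no filter, a stricter filter at log2 6, array weights, centred arrays, quantile normalized MAS5, a MAS5 pseudocount of 16, each array left out, both replicate 1 arrays left out), 0 adult globin probe sets passed the threshold. With the replicate number as a block the count was 0 in each summary, so the block changed no call among these probe sets. Few probe sets of any kind passed: 0.00587% of all tested in GCRMA, 0.0117% with the block, and 0% in MAS5 with or without it. In MAS5 even the Ehmt2 probe sets did not pass (−2.71 and −2.46, limma adjusted p = 0.743 and 0.349). A count of 0 therefore says little about smaller globin changes. Among the other hemoglobin genes 0 passed in MAS5, with the block and with each array left out. Signs near 0 were not stable. The several-gene β difference was −0.026 in GCRMA, 0.32 in MAS5, −0.00050 in quantile normalized MAS5 and 0.0063 without replicate 1, and −0.13 to 0.038 with one array left out. At 1452757_s_at it was 0.26 in MAS5, −0.068 quantile normalized. At 1428361_x_at it was −0.040 quantile normalized and −0.019 to 0.11 with one array left out in GCRMA. At 1417714_x_at it was −0.054 with array weights, −0.083 in GCRMA and −0.011 in MAS5 without replicate 1, −0.14 quantile normalized, and −0.14 to 0.16 (GCRMA) and −0.093 to 0.21 (MAS5, −0.067 without knockdown replicate 2) with one array left out. At 1427219_at it was −0.092 with array weights, −0.061 without replicate 1, and −0.084 to 0.22 (GCRMA) and −0.13 to 0.23 (MAS5) with one array left out. At 1427866_x_at it was negative in all 13 GCRMA settings (−0.70 to −0.030) and in 13 of 14 MAS5 settings, and −0.60 to 0.079 in MAS5 with one array left out. At 1427865_at the sign held in every setting run (0.22 to 0.83). The 2 Hbb-b2 probe sets thus kept opposite signs in nearly all settings. The change of the α to β balance was 0.039 as reported, −0.036 over all tested α and β probe sets, −0.027 without replicate 1, −0.11 in MAS5, −0.083 quantile normalized and −0.11 with a pseudocount of 16, and −0.029 to 0.087 in GCRMA with one array left out. The brightest 0.5% and 2% had median differences of 0.060 and −0.0037 in GCRMA and 0.30 and 0.082 in MAS5. List medians moved by more than their spread without wild type replicate 1 for chain handling (−0.087) and RNA-binding genes (0.047, and 0.011 without knockdown replicate 2), and without knockdown replicate 3 for transcription genes (0.17). The causes were not tested. Ahsp minus α was not run, since no Ahsp probe set was matched. Several-gene probe sets near the top of the range limit what can be seen of single globin genes.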
